A study of Mus musculus with 7 samples.

Results

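The galectin genes Lgals1, Lgals3, Lgals8 and Lgals9 and the gene of galectin-3 binding protein, Lgals3bp, were followed across mouse hearts with and without myocarditis of the kind caused by immune checkpoint inhibitors (ICI). These 5 genes were found by their symbols among the 23420 gene rows of the deposited table, and all 5 were present. RNA came from flash-frozen cardiac ventricle, from tissue labelled as whole heart, in 7 libraries of untreated mice aged 3 to 6 weeks. The 4 control libraries were Ctla4+/+;Pdcd1-/- and the 3 ICI-myocarditis libraries were Ctla4+/-;Pdcd1-/-, so loss of Pdcd1 was shared by both groups and the groups differed by 1 copy of Ctla4. The products of these genes, CTLA-4 and PD-1, hold T cell activity back, and checkpoint inhibitors block them. The model is genetic, with no drug given. The labels do not say that each library came from its own mouse, so p-values measure the spread between these samples.

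Galectins are lectins that bind beta-galactoside sugars on glycoproteins and are made without a signal peptide, so that they act both inside cells and, after unconventional release, on the cell surface. Galectin-1 carries a single type of binding domain and pairs with itself. Galectin-3 joins its binding domain to a flexible tail and forms higher assemblies, while galectin-8 and galectin-9 hold a pair of different binding domains in one chain. Galectin-3 is abundant in activated macrophages and is used as a blood marker in heart failure. Galectin-9 is a ligand of the receptor TIM-3, and galectin-8 marks damaged endosomes and lysosomes. Galectin-3 binding protein is a secreted glycoprotein that binds galectin-3 and is known to be induced by interferon.

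In build GRCm38, the GENCODE annotation placed Lgals1 on chromosome 15 (78926725 to 78930465, plus strand) and Lgals3 on chromosome 14 (47367751 to 47386160, plus strand). Lgals8 lay on chromosome 13 (12439415 to 12464944, minus strand). Lgals9 (78962974 to 78984946, minus strand) and Lgals3bp (118392751 to 118402092, minus strand) lay far apart on chromosome 11. Exons of Lgals8 shared 155 bases, 4.2% of their merged length, with Heatr1 on the opposite strand, and whether the authors' counting used strand is not given in the sources used here. The other members shared no exon bases with another annotated gene.

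RefSeq promoter windows (GRCm38.p6, 250 bases before to 50 bases after the annotated start) were matched for 4 of the 5 members, all but Lgals1, and were searched on both strands for interferon-related motifs. The 2 matches of the longer motif and the match in Lgals3bp are shown because Lgals9 and Lgals3bp are known interferon-induced genes and because interferon response genes differed between these hearts. Capitals mark the match, and each stretch runs 5′ to 3′ on the strand of its gene.
Lgals9, chr11:78984960-78984989, minus strand: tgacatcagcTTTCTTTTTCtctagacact
Lgals9, chr11:78984890-78984919, minus strand: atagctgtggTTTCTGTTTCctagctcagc
Lgals3bp, chr11:118401955-118401984, minus strand: tgttttctgaaAATCGAAActaggtgaggt
The interferon-stimulated response element was searched as a pair of GAAA units with 2 bases of any kind between them. It matched Lgals9 at 2 places, from 55 to 46 bases before the start and from base 16 to base 25 after it, both on the opposite strand, so the printed letters are its reverse complement. The site after the start overlapped an annotated exon. The shorter core of interferon regulatory factor sites, AANNGAAA, is contained in the longer motif. Apart from those overlaps it matched Lgals9 from 151 to 144 bases before the start, and it matched Lgals3bp from 14 to 7 bases before the RefSeq start, a stretch that overlaps an exon in GENCODE, where the gene starts further upstream. Of 32851 windows of 300 bases, 3.44% held the longer motif and 23.9% the core. Neither motif was found in the windows of Lgals3 and Lgals8. The gamma-activated site TTCNNNGAA, present in 8.3% of windows, was found in none of the 4 windows. The core was added to the search after the Lgals3bp window had been read, and a match describes letters, not binding.

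Libraries held between 20931730 and 39037176 reads assigned to genes. Values are normalized counts, for which the authors scaled the reads of each gene by a size factor of the library. Pdcd1 reads were present in all 7 libraries, from 2.50 to 244 normalized counts in controls and from 1096 to 1481 in ICI-myocarditis, and Ctla4 was higher in the mice that lacked 1 copy (63.3 ± 37.4 and 302 ± 63.4 normalized counts). A count over a whole gene does not show which exons were deleted, so neither gene checked the labels. Control 2 stood apart from the other controls in immune genes. Its summed T cell markers were 1287 normalized counts against 98.8 to 151 in the other controls, and its summed interferon response genes were 32707 against 8637 to 13107. Cardiomyocyte markers were abundant in every library, at 804269 normalized counts or more in sum, and the skeletal muscle, fat and thymus marker lists summed to at most 183 in any library.

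The comparison asked which galectin transcripts differed in the diseased heart. Lgals3 and Lgals3bp rose in ICI-myocarditis, by 4.85 and 1.98 on the log2 scale. Lgals1, Lgals9 and Lgals8 had fitted changes of 0.69, 0.64 and 0.36 that did not pass the test. Tests were made with limma on log2(normalized count + 1) over 15258 genes, with a threshold of 0.05 on the Benjamini-Hochberg adjusted p. Of the 5 members, 2 passed, both higher, where 15.7% of all genes tested passed in either direction and 11.7% passed as higher. The median log2 fold change was 0.69 over the 5 members and -0.02 over all genes tested. The 3 ICI-myocarditis libraries lay above all 4 controls for 3 of the 5 members, against 17.3% of all genes tested.

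**Figure D1:**
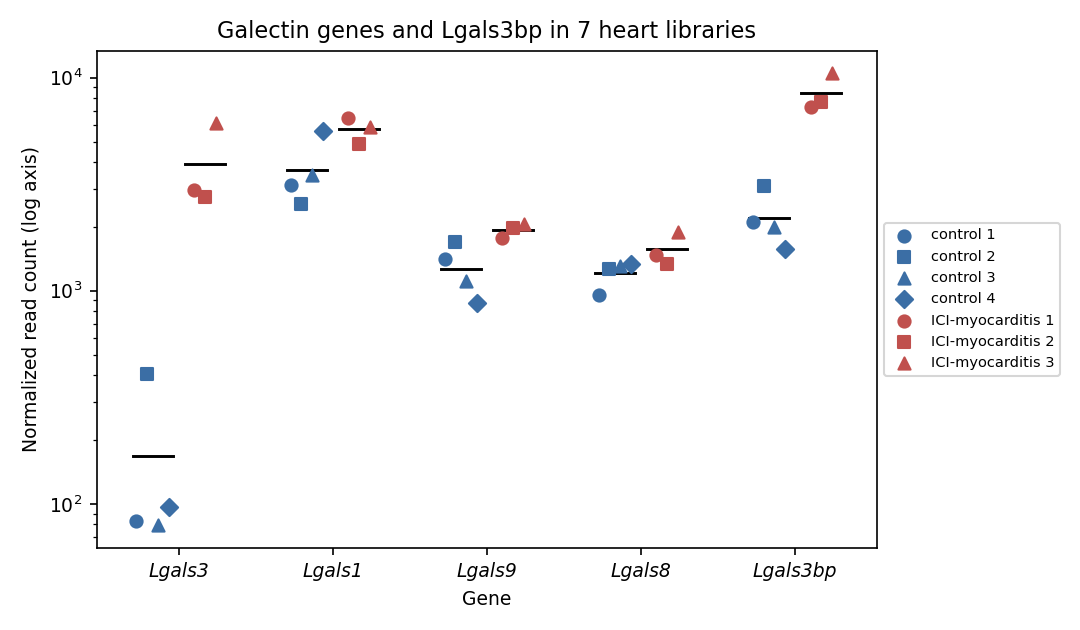
Normalized read count (log axis) of each of the 5 genes in each of the 7 libraries, with controls in blue, ICI-myocarditis in red and a black line at each group mean. Lgals3 lies between 79.3 and 408 in controls and between 2751 and 6100 in ICI-myocarditis, while the groups overlap for Lgals1 and Lgals8.

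Lgals3, the gene of the chimera-type galectin of activated macrophages, stood at 82.7, 408, 79.3 and 96.3 normalized counts in controls 1 to 4 and at 2961, 2751 and 6100 in ICI-myocarditis 1 to 3. The groups did not overlap, and the lowest ICI-myocarditis library was far above control 2, which in turn was 4.74 times the mean of the other controls. The log2 fold change was 4.85 (SE 0.563, limma adjusted p = 0.00275), a 28.8-fold rise with a 95% interval from 11.9 to 69.3. Behind the control values stood only 71 to 331 reads per library, against 2894 to 7984 in ICI-myocarditis. Without control 2 the log2 fold change was 5.40 (limma adjusted p = 1.25e-05), and the ICI-myocarditis 3 library, at 2.14 times the mean of the other two, was not needed for the call (4.48 without it, limma adjusted p = 0.0117). The authors' deposited table gave Lgals3 a log2 fold change of 4.56 with an adjusted p of 1.66e-12.

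Lgals3bp, whose product binds galectin-3, was already well expressed in controls. Its values were 2092, 3106, 1981 and 1564 normalized counts in controls 1 to 4 and 7310, 7667 and 10470 in ICI-myocarditis 1 to 3. Every ICI-myocarditis library was above every control, control 2 was the highest control and control 4 the lowest. The rise was 1.98 log2 units (SE 0.266) at a limma adjusted p of 0.00363, or 3.95-fold with a 95% interval from 2.61 to 5.99. The authors' deposited table gave Lgals3bp a log2 fold change of 1.96 with an adjusted p of 3.17e-09.

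Lgals9, the gene of the TIM-3 ligand, had values of 1403, 1695, 1107 and 871 normalized counts in controls 1 to 4 and 1759, 1958 and 2050 in ICI-myocarditis 1 to 3. The groups did not overlap, but control 2 lay close below the lowest ICI-myocarditis library. The log2 fold change was 0.64 (SE 0.241, limma adjusted p = 0.108), with a 95% interval from 1.07-fold to 2.27-fold before adjustment for the number of genes. It passed the threshold without control 2 (0.79, limma adjusted p = 0.0320) and in limma-voom with library weights (0.70, adjusted p = 0.0170), and in no other alternative of 17. The authors' deposited table gave Lgals9 an adjusted p of 0.113.

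Lgals1, the gene of galectin-1, had 3135, 2546, 3496 and 5633 normalized counts in controls 1 to 4 and 6458, 4869 and 5888 in ICI-myocarditis 1 to 3. Control 4 lay above ICI-myocarditis 2, so the groups overlapped, and it was 1.84 times the mean of the other controls. The log2 fold change was 0.69 (SE 0.284, limma adjusted p = 0.140), with a 95% interval from 1.03-fold to 2.51-fold. It passed without control 4 (0.91, limma adjusted p = 0.0319) and with scaling by library size (0.85, limma adjusted p = 0.0356), and in no other alternative of 17. In the authors' deposited table the adjusted p of Lgals1 was 0.146.

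Lgals8, whose product recognises damaged vesicles, had 952, 1258, 1304 and 1331 normalized counts in controls 1 to 4 and 1472, 1328 and 1892 in ICI-myocarditis 1 to 3. The highest control and the lowest ICI-myocarditis library differed by a few counts only, with control 4 above ICI-myocarditis 2. The log2 fold change was 0.36 (SE 0.205, limma adjusted p = 0.270), with a 95% interval from 0.935-fold to 1.77-fold, and it passed in none of the 17 alternatives. In the authors' deposited table the adjusted p of Lgals8 was 0.291.

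The controls did not order alike for the 5 genes. Control 2 was 1.65 times the mean of the other controls for Lgals3bp and 1.5 times for Lgals9, but 1.05 times for Lgals8 and 0.623 times for Lgals1. Control 4 was the lowest control for Lgals3bp and Lgals9 and the highest for Lgals1 and Lgals8. Summed endothelial markers were highest in control 2 (72509 normalized counts) and lowest among controls in control 4 (29249). The same held for summed T cell markers (1287 and 98.8) and interferon response genes (32707 and 8637). Summed cardiomyocyte markers ran the other way, lowest in control 2 (1257000) and highest in control 4 (2384910). The part of these values in the differences between controls was not tested.

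The remaining galectin-family rows were Lgals2, Lgals4, Lgals6, Lgals7, Lgals12, Lgalsl and Grifin. Rows were tested where 3 or more libraries held 10 or more normalized counts, which left 4 of these 7. None of the 4 was called by limma, edgeR or DESeq2, and none reached an unadjusted p under 0.05 in limma. Lgalsl, a galectin-related gene, was the only abundant one, with 1641 ± 376 normalized counts (SD, n = 4) in the control group against 1509 ± 262 (SD, n = 3) in the diseased one, a log2 fold change of -0.11 (limma adjusted p = 0.796) whose sign turned in 3 alternatives. Lgals4, known from gut epithelium, ranged from 30.0 to 216 in controls and from 29.0 to 59.4 in ICI-myocarditis, a fitted difference of -0.93 (limma adjusted p = 0.368). The authors' deposited table gave Lgals4 a log2 fold change of -1.27 with an unadjusted p of 0.0371 and an adjusted p of 0.132. A near-identical gene, Lgals6, had no entry in the GENCODE annotation used and held 0 to 3 reads per library. Whether these mice carry it, and whether reads were shared with Lgals4, cannot be told here. Lgals2 ranged from 26.7 to 109 and Lgals12, known from fat cells, from 0 to 32.9 over all 7 libraries (limma adjusted p = 0.538 and 0.307). Lgals6, Lgals7 and Grifin reached at most 14.3 normalized counts in any library and were not tested.

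**Figure D2:**
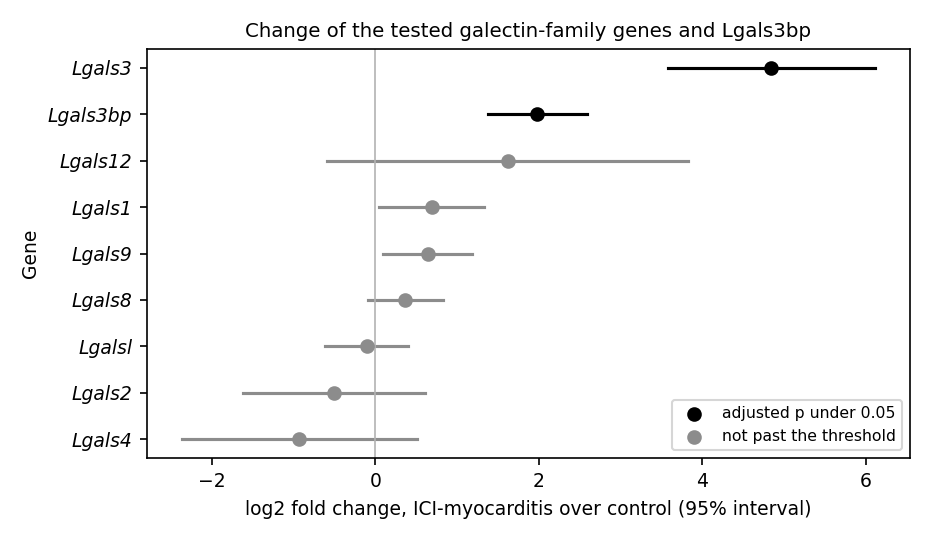
Log2 fold change of ICI-myocarditis over control for the 9 tested rows, with 95% intervals from limma. Lgals3 (4.85) and Lgals3bp (1.98), in black, passed the threshold, and the 7 rows in grey did not.

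Levels were compared between genes only after division by merged exon length. Per kb, Lgals1 was the highest galectin in every library, at 4100 ± 1490 normalized counts per kb (SD, n = 4) in the control group against 6355 ± 892 (SD, n = 3) in the diseased one. In controls Lgals3bp (768 ± 230) and Lgals9 (594 ± 168) came next and overlapped. Lgalsl (399 ± 91.3) and Lgals8 (328 ± 47.6) followed, and each of these 4 overlapped its neighbour in this order. Lgals3 was the lowest member there, at 89.7 ± 86.8. In ICI-myocarditis Lgals3 reached 2119 ± 1010 normalized counts per kb, with a range (1481 to 3283) that overlapped that of Lgals3bp (2568 to 3677) and lay above that of Lgals9 (823 to 959). Lgals8 stood at 424 ± 79.5.

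Summed over the galectin-family rows with an annotated length, Lgals3bp left out, transcripts per kb were 5679 ± 1334 in controls and 10279 ± 1565 in ICI-myocarditis, a ratio of means of 1.81. The share of this sum held by Lgals3 was 0.897%, 4.61%, 0.798% and 0.678% in controls 1 to 4 and 15.1%, 17.2% and 28.1% in ICI-myocarditis 1 to 3. In every ICI-myocarditis library Lgals3 held the next largest share after Lgals1. Lgals1 held 70.8% ± 9.21 in controls and 62.1% ± 5.98 in ICI-myocarditis, with overlapping ranges. Lgals9 held 11.2% ± 4.85 and 8.89% ± 1.55. Lgals8 held 4.72% to 7.16% in controls and 3.78% to 4.39% in ICI-myocarditis, without overlap, although its own level did not pass the test. Lgalsl held 6.34% to 7.5% and 2.79% to 4.17%, also without overlap. Shares add up to the whole, so a lower share does not show a lower level.

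**Figure D3:**
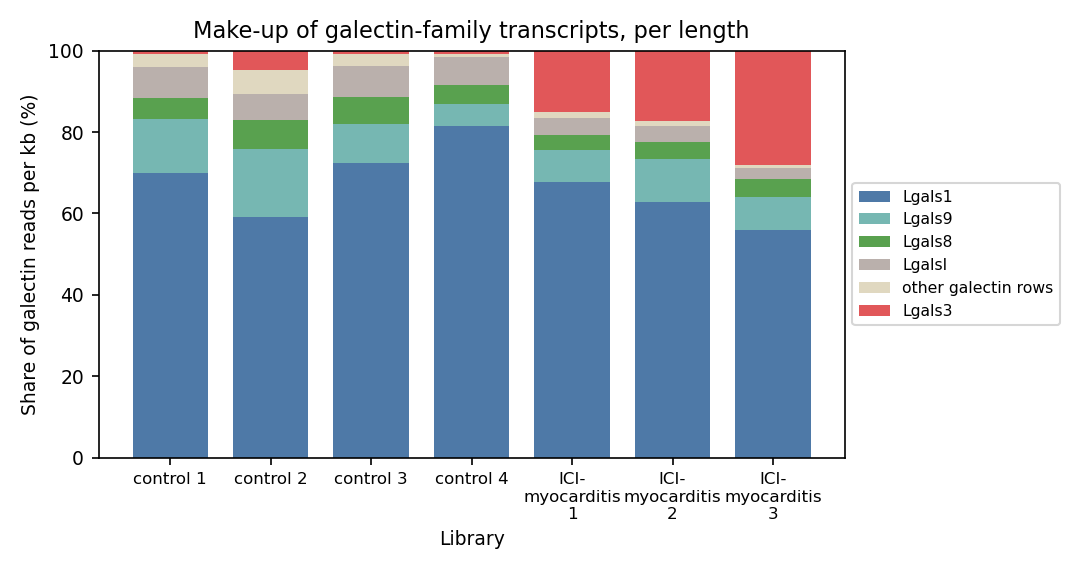
Share of each galectin gene in the sum of galectin-family reads per kb of merged exon, one bar per library. The red segment, Lgals3, is at most 4.61% in controls and at least 15.1% in ICI-myocarditis.

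Whether 2 members changed by unequal amounts was tested on their log2 ratio within each library, which does not depend on scaling. The test was exact and two-sided, permuting the group labels in all 35 ways. The smallest p this design allows is 0.0286. Of the 10 pairs, 5 reached it, and each had an adjusted p of 0.0571, so no pair passed after adjustment over the 10. A pair at the smallest p could pass only if more pairs had reached it, whatever its size. Lgals3 rose relative to its binding partner gene Lgals3bp by a mean of 2.86 log2 units, with ratios from -4.64 to -2.92 in controls and from -1.48 to -0.78 in ICI-myocarditis (exact permutation p = 0.0286). Relative to Lgals8 and Lgals9, Lgals3 was higher by 4.48 and 4.21 (exact permutation p = 0.0286 for each), and relative to Lgals1 by 4.16 (exact permutation p = 0.0571, adjusted 0.0952). The other pairs at the smallest p were Lgals3bp against Lgals9 (1.34) and against Lgals8 (1.62). Among Lgals1, Lgals8 and Lgals9 the ratios overlapped between groups, with mean differences from -0.05 to 0.32 (exact permutation p from 0.343 to 0.914).

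In bulk tissue, more cells of a type and more RNA per cell cannot be told apart, so the members were set beside cell type markers in the same libraries. Summed macrophage and monocyte markers ranged from 17143 to 23437 normalized counts in controls and from 63166 to 95374 in ICI-myocarditis, and 11 of the 13 rose, 1 fell and 1 did not pass. Summed fibroblast markers ranged from 54634 to 86818 and from 145561 to 208232, and 4 of the 8, the collagen genes Col1a1, Col1a2 and Col3a1 and the matrix gene Postn, rose. All 6 T cell markers in the table rose. Over all genes tested, 11.7% passed as higher and 4.00% as lower. Endothelial and mural markers fell in 4 of 7 and 4 of 6 cases. Of the cardiomyocyte markers, 0 of 8 passed in limma's test (2 had an unadjusted p under 0.05, both lower). None of the 8 was fitted above 0, with a median log2 fold change of -0.76. Their sums ranged from 1257000 to 2384910 normalized counts in controls and from 804269 to 1346880 in ICI-myocarditis.

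Relative to summed macrophage markers, Lgals3 was higher in ICI-myocarditis by 3.05 log2 units, and the groups did not overlap (exact permutation p = 0.0571, adjusted over 10 ratios 0.0816). The ratio of Lgals3bp to the same markers differed by 0.19, with ICI-myocarditis values from -3.19 to -3.04 inside the control range of -3.82 to -2.92 (exact permutation p = 0.514). Lgals1, Lgals8 and Lgals9 differed relative to macrophage markers by -1.11, -1.43 and -1.16 log2 units, each lower without overlap (exact permutation p = 0.0571, 0.0286 and 0.0571, adjusted 0.0816 for each). Summed macrophage markers themselves had a ratio of means of 3.51, so a gene of even level would also have a lower ratio. These lower ratios do not show lower levels. The Lgals8 ratio was the steadiest of the 5 in controls, from -4.22 to -4.05. Of the macrophage markers, Lyz2, Csf1r and Mrc1 had the highest control means (6996, 2956 and 2851 normalized counts). These rose least among the markers that rose, Csf1r by 1.33 and Mrc1 by 0.79 log2 units. The rest that rose ran from 2.28 (Adgre1) to 3.46 (Fcgr1), below the 4.85 of Lgals3. The size of the Lgals3 ratio depends on the markers summed, and ratios to single macrophage markers were not tested. Relative to fibroblast markers Lgals3 was higher by 3.45 without overlap (exact permutation p = 0.0571), and Lgals3bp by 0.58 with overlap (exact permutation p = 0.114). The differences of Lgals1, Lgals8 and Lgals9 relative to fibroblast markers were -0.71, -1.03 and -0.76, with overlap for Lgals1 only (exact permutation p = 0.257, 0.0571 and 0.0571). Most of the summed fibroblast counts came from the collagen genes and Postn, which rose. The fibroblast sum had a ratio of means of 2.63, so lower ratios to it do not show lower levels either. Dcn, Pdgfra, Lum and Tcf21 had log2 fold changes of 0.11, 0.27, 0.51 and 0.70 and did not pass. Ratios to these genes alone were not tested. None of the 10 ratios passed after adjustment. In this design a ratio at the smallest possible p cannot pass unless several others reach it too, whatever its size.

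**Figure D4:**
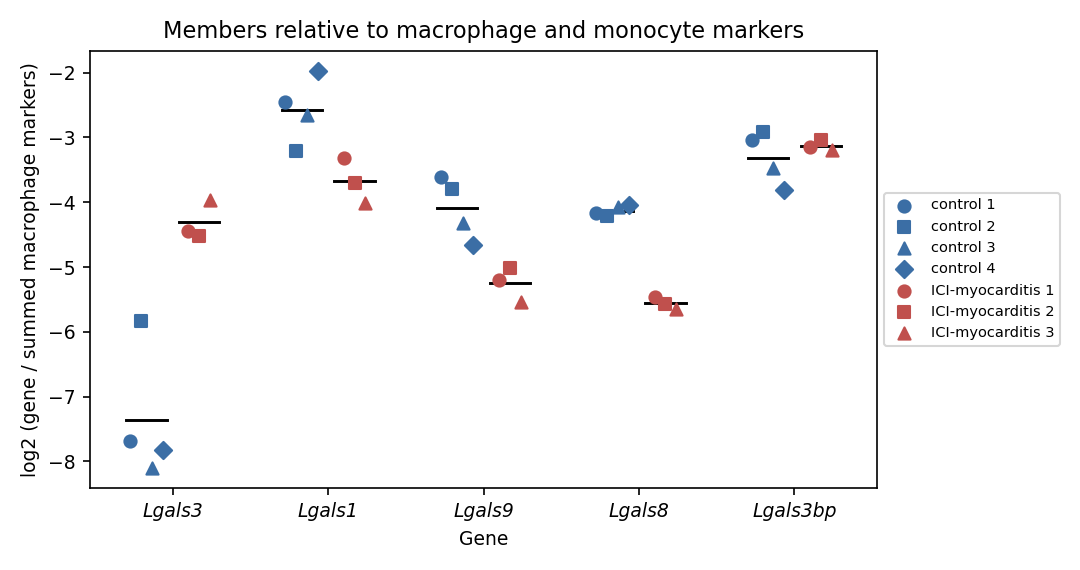
Log2 ratio of each gene to the summed normalized counts of 13 macrophage and monocyte markers, one point per library, with black lines at group means. Lgals3 is higher by 3.05 in ICI-myocarditis, Lgals3bp overlaps between groups, and Lgals1, Lgals8 and Lgals9 are lower. The summed markers rose, so a lower ratio does not show a lower level.

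Genes of proteins known to bind galectins formed a list of 19. Of these, 10 rose, 1 fell and 8 did not pass, with a median log2 fold change of 1.04 against -0.02 over all genes. The share called was 57.9%, against 15.7% of all genes tested. The list was chosen with earlier results of these data known. Most that rose encode leukocyte surface proteins. Havcr2, the gene of the galectin-9 receptor TIM-3, stood at 25.2, 197, 29.0 and 18.8 normalized counts in controls 1 to 4 and at 680, 783 and 1687 in ICI-myocarditis 1 to 3. It rose by 4.53 (SE 0.736) at a limma adjusted p of 0.00549. Control 2 was the high control and ICI-myocarditis 3 the highest library, as for Lgals3. The same held for Ptprc, Spn, Cd2, Lag3 and Cd44 of this list, so the pattern was not particular to Havcr2 and Lgals3. Lag3, the gene of a T cell inhibitory receptor that galectin-3 binds, rose by 4.68, and Tnfrsf9, the gene of the costimulatory receptor 4-1BB, by 4.86. The Tnfrsf9 call was lost without ICI-myocarditis 3 (4.81, limma adjusted p = 0.0511) and in edgeR's quasi-likelihood test (3.42, adjusted p = 0.0583). Without control 2, the high control, Havcr2 rose by 5.27, Lag3 by 5.41 and Tnfrsf9 by 5.93, and in edgeR Havcr2 rose by 3.92 and Lag3 by 4.02. Without control 4 Tnfrsf9 rose by 4.2.

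Receptors of galectin-1 on T cells were higher as well. Ptprc (CD45) rose by 3.14, Spn (CD43) by 4.24, Cd2 by 4.49 and Cd7 by 3.92. The Cd2 call was lost without ICI-myocarditis 3 (4.25, limma adjusted p = 0.0552). Without control 2, Spn rose by 4.87 and Cd2 by 5.38. Without control 4, Cd2 rose by 3.83 and Cd7 by 3.27, and in edgeR Cd2 rose by 3.45. Trem2, a macrophage receptor gene, rose by 2.84. Cd44, an adhesion receptor gene, rose from 966 ± 227 to 5653 ± 1964 normalized counts, by 2.52 log2 units (limma adjusted p = 0.00251). Itga5, an integrin gene, rose by 1.04, and Tfrc, the gene of the transferrin receptor, fell by 1.12. Both of these calls were marginal, with Itga5 past the threshold in 11 and Tfrc in 10 of 17 alternatives, and each was lost without control 1, 3 or 4 or without ICI-myocarditis 3, Itga5 also without ICI-myocarditis 2 and Tfrc without ICI-myocarditis 1. Without ICI-myocarditis 3 the list held 7 called genes. Itgb1 (-0.06), Lamp1 (0.09), Nrp1 (-0.48) and Mertk (0.94) did not pass (limma adjusted p = 0.916, 0.880, 0.269 and 0.144). T cell markers moved with the leukocyte genes of this list, from 98.8 to 1287 normalized counts in sum in controls to 6208 to 9497 in ICI-myocarditis. Summed macrophage and monocyte markers rose too, from between 17143 and 23437 to between 63166 and 95374. The part of either cell type was not tested.

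**Figure D5:**
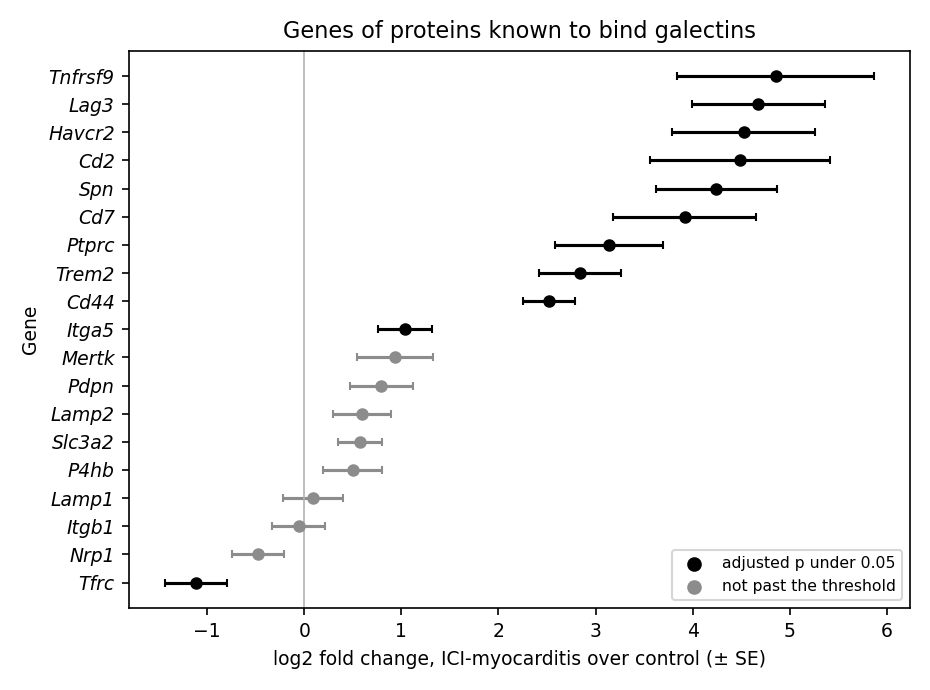
Log2 fold change with its SE from limma for the 19 genes whose products bind galectins. The 10 genes that rose run from Itga5 (1.04) to Tnfrsf9 (4.86), Tfrc (-1.12) fell, and grey points did not pass the threshold.

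Enzymes that build or cap the sugar chains galectins bind were a list of 18, of which 1 rose, 2 fell and 15 did not pass. The share called, 16.7%, was close to the 15.7% of all genes tested. Gcnt1, which starts branched chains on O-glycans, rose by 1.63 (SE 0.253, limma adjusted p = 0.00467), from 190 ± 48.4 to 580 ± 97.4 normalized counts. St6gal1, whose product adds the sialic acid that blocks galectin-1 binding, fell by 0.61 and was lower in all 3 ICI-myocarditis libraries (462 to 559 normalized counts) than in any control (716 to 812). St3gal6, another sialyltransferase gene, fell by 0.87. The calls of St6gal1 and St3gal6 (limma adjusted p = 0.0404 and 0.0435) each held in 6 of 17 alternatives, and leaving out any library but ICI-myocarditis 1 left 1 gene called in this list, against 2 without ICI-myocarditis 1. The branching enzyme gene Mgat5, which makes high-affinity galectin ligands, differed by 0.14 (limma adjusted p = 0.781).

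Genes that act with galectin-8 and galectin-3 at damaged lysosomes were a list of 7, of which 14.3% was called against 15.7% of all genes tested. Optn, an autophagy receptor gene, went from 2581 ± 341 to 1284 ± 167 normalized counts and fell by 1.0 log2 units (SE 0.189, limma adjusted p = 0.00870), and the other 6 did not pass. Trim16, a galectin-3 partner gene, differed by -0.14 and Sqstm1, another autophagy receptor gene, by 0.22 (limma adjusted p = 0.764 and 0.624).

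Of 12 interferon response genes, 10 rose, none fell and 2 did not pass, with a median log2 fold change of 2.31. The share called was 83.3%, against 15.7% of all genes tested. Lgals3bp (1.98) lay near Oasl2 (2.09), an antiviral gene, and Usp18 (1.97), a negative regulator of interferon signalling. Lgals9 (0.64) lay near Irf9 (0.76) and Rsad2 (0.49), the 2 genes of the list that did not pass (limma adjusted p = 0.0621 and 0.369). The genes set beside Lgals3bp and Lgals9 were picked for their near fold changes, which do not show shared regulation. The Usp18 call held in 13 of 17 alternatives and was lost without control 1 or 3 or without ICI-myocarditis 1 or 2. Irf1 and Cxcl10, the gene of a T cell chemokine, rose by 2.29 and 5.44, and both calls were lost without ICI-myocarditis 3 (limma adjusted p = 0.0552 and 0.0514). Cxcl10 rose by 6.51 without control 2, by 4.71 without control 4 and by 4.10 in edgeR.

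The genes with profiles most like each member were found by the root-mean-square difference of centred log2 values over the 7 libraries, among 11380 genes with a mean of at least 100 normalized counts. This measure is a description of these 7 libraries, which every gene shares. For Lgals3 they were Oas3 (0.19 log2 units), Spp1, the gene of osteopontin (0.26), Kcnn4 (0.31) and Lag3 (0.33). For Lgals3bp they were Dtx3l (0.11), Ccdc109b (0.12), Kbtbd11 (0.12) and Limd2 (0.12). Lgals9 was closest to Dnaaf2, Wdfy2, Grk6 and Actg1 (0.10 for each), and Lgals8 to Agfg1 (0.07), Atp1b3 (0.09), Atp11b (0.09) and Pias1 (0.10). Lgals1 was closest to Rps26 (0.12), a ribosomal protein gene, Rhod (0.13), Hn1 (0.14) and Pomp (0.15). Among the members themselves the smallest difference was between Lgals1 and Lgals8 (0.36) and the largest between Lgals3 and Lgals8 (2.34).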

How the data were processed

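The authors aligned reads with STAR 2.7.3 to GRCm38 (mm10), per the submitters' processing notes. The counting program, annotation and use of strand are not given in the sources used here. The deposited signal of each library was made by the authors from read counts per gene, scaled by a size factor. Division by the smallest step of each column gave whole reads for 100% of values (within 0.01), a weaker sign in control 1, whose step of 1.01 is close to 1. The deposited table also holds, per the file headers, the authors' log2 fold change, a score that is the test statistic, p-values and adjusted p-values, with column names as DESeq2 writes them.

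Genes that reached 10 normalized counts in 3 or more libraries entered the test, made on log2(normalized count + 1) with limma (version 3.58.1, R 4.3.3, trend and robust settings). edgeR (4.0.16) and DESeq2 (1.42.0) were run on recovered reads as alternatives. On this scale the added 1 draws the change of very low genes toward 0, while a mean of logs gives low libraries more weight, so genes with low and uneven controls had larger fold changes than in the count models (Tnfrsf9 4.86 against 3.42 in edgeR and 3.45 in DESeq2). The members and lists were chosen with earlier results of these data known. All members were named, with the other galectin-family genes, the called genes of each list or its lowest p-values, and the 4 genes most like each member. List symbols were matched to older names through RefSeq, which found Adgre1; Trbc2 and Ly6g were not used here. Lengths are merged exons of GENCODE M21. Reads carry no molecular identifiers, and counting error is small beside the spread between libraries for all but the low genes.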

Additional observations from a re-analysis of the deposited data

Results flagged for a closer look

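In the 4 controls, 1 library lay so far from the rest on the log2 scale that its gap to the next exceeded Dixon's 95% critical share of the range, for 4 of the 34 genes examined. Chance gives about 1 in 20 such groups. Control 2 was high for Lgals3 (gap 0.882 of the range), for Lag3 (0.845) and for Irf7 (0.922), and control 1 was low for Lgals8 (0.832). In control 2 Lgals3 was 4.74 times the mean of the other controls, beside 9.79 times for summed T cell markers, 3.08 times for interferon response genes and 1.15 times for summed macrophage and monocyte markers. The part of these in the Lgals3 value of control 2 was not tested.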

How the results depend on the processing

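Lgals3 and Lgals3bp passed under all 17 alternatives, with largest adjusted p-values of 0.0142 and 0.0183. The number of members called was 2 or 3 in each. Leaving out 1 library at a time gave log2 fold changes from 4.48 to 5.40 for Lgals3, 1.82 to 2.17 for Lgals3bp, 0.53 to 0.91 for Lgals1, 0.47 to 0.79 for Lgals9, 0.22 to 0.47 for Lgals8 and -0.246 to 0.030 for Lgalsl. Lgals1 passed when libraries were scaled by their size alone (0.85, adjusted p = 0.0356), which moved the median of all genes from -0.02 to 0.13. Relative to that median Lgals1 stood at 0.71 in both scalings. Lgals9 passed in limma-voom (0.70, adjusted p = 0.0170). The sign of Lgalsl turned with scaling by library size (0.0524), with the replicate block (0.030) and without control 4 (0.030). Calls over all genes numbered 2397, against 4003 in limma-voom and from 986 to 3340 with 1 library left out. In the list of sugar chain enzymes the count was 6 in DESeq2, 5 in limma-voom, and 1 with no filter, without trend and robust settings or with the replicate block. Same-numbered libraries of the groups deviated with correlations of -0.27, -0.21 and -0.08, which gave no sign of pairing by number. Over all pairs of libraries these correlations ran from -0.48 to 0.45. Deviations were taken from group means of few libraries, so the correlations depend on one another and cannot exclude a shared origin. With the replicate number as a block, which leaves control 4 without a partner, Lgals3 (4.71) and Lgals3bp (1.84) passed and 1780 genes were called, while Lgals1 (0.91), Lgals9 (0.47) and Lgals8 (0.41) did not pass. Optn missed the threshold there (adjusted p = 0.0543), which left 0 genes called in its list by limma. Without 1 library the exact test of ratios cannot reach 0.05, so only the ratios themselves were recomputed, and none that had the smallest p changed sign.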

Other observations

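The macrophage and monocyte markers did not move as a block. Fcgr1 (log2 fold change 3.46), Ccr2 (3.04), a gene of recruited monocytes, and C1qb (2.74) rose most, while Cd14 was near even (0.09, limma adjusted p = 0.860). Cd163, a gene of resident macrophages, fell from 1252 ± 84.7 to 662 ± 54.8 normalized counts (log2 fold change -0.92, limma adjusted p = 0.00795). Ccr2 stood at 1099 normalized counts in control 2 against 66.5 to 276 in the other controls, and Lgals3 was high in the same library. Control 2 was also the highest control for Adgre1, Cd68, C1qa, C1qb, C1qc, Fcgr1 and Itgam. It was not the highest for Csf1r, Cd163, Mrc1 and Lyz2, and it was the lowest for Cd14 (159 normalized counts). The summed list was 1.15 times the mean of the other controls there. Any link of Ccr2 to Lgals3 was not tested. The markers given with values were singled out after their values had been seen.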
